A study of Mus musculus with 6 samples.

Results

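Basement membrane and integrin genes are described here as a set of 35 genes, out of 19937 genes measured, in mammary epithelial organoids cultured with doxycycline (DOX) or without it. The 35 were listed by name as laminin, collagen IV, XVII and XVIII, nidogen, perlecan and agrin genes, the dystroglycan gene, integrin subunits and 3 proteins that work with integrins at hemidesmosomes. Each was read by 1 probe set assigned to that symbol alone. Organoids, small clumps of gland epithelium released by enzymes, came from age-matched female FVB mice carrying the ErbB3 DOX-KO genotype, an inducible knockout of the neuregulin receptor gene Erbb3. The samples were 3 cultures with 5 µM DOX and 3 control cultures without it, all of the same genotype and kept for 14 days in growth factor-reduced Matrigel, and each RNA was measured on 1 single-colour whole-transcript array. The labels do not name the deleted exons, the promoter that drives the inducible system, or say whether each replicate, called biological in the design, came from its own mouse, and p-values measure the spread between these samples. Values are log2 expression, and differences are DOX minus control on that scale.

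The basement membrane is the thin sheet of matrix on which an epithelium sits. Laminins, trimers of an alpha, a beta and a gamma chain, and collagen IV form its networks, and nidogens, perlecan and agrin link these networks. Cells hold on to it through integrins, each a pair of an alpha and a beta subunit, and through dystroglycan, and in hemidesmosomes the integrin α6β4 is tied to keratin filaments by plectin and dystonin. In the mammary gland, contact with laminin is known to be needed for the polarity and milk gene expression of the luminal cells. Matrigel is itself an extract rich in laminin and collagen IV, so all 6 cultures met these proteins from outside, whatever RNA they made.

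The Erbb3 probe set gave no sign of loss under DOX, with 10.36, 9.31 and 9.82 in the arrays labelled DOX replicates 1, 2 and 3 against 9.78, 9.71 and 9.69 in the control replicates (difference 0.10, limma adjusted p = 0.845, and 0.37, limma adjusted p = 0.105, without DOX replicate 2). Whether this probe set reads the deleted exons is not known, and every direction below follows the labels as given. No culture of another genotype was given DOX, so effects of DOX itself and of the knockout cannot be told apart. DOX replicate 2 stood apart, with correlations of 0.816 to 0.865 with the other arrays, which correlated with each other at 0.963 or more across genes. Its values were compressed: when all genes were split into 10 equal steps by their control mean, genes of step 1 read a median of 0.84 above that mean on this array, while the median of step 10, the highest, was −1.59. The members' counts and calls are therefore given for the 6 arrays and again leaving DOX replicate 2 out, which rests on 2 arrays labelled DOX. Of 10 luminal markers 8 had a mean above 5.92, the median of all genes, and Krt19 and Prom1 did not. Krt8 read 11.77, 10.97 and 11.79 in arrays labelled DOX against 12.54, 12.52 and 12.49 in control arrays. Of 10 myoepithelial markers, those of the outer cell layer that lies on the basement membrane, 2 (Krt14 and Oxtr) had a mean above that median, and Krt5, Acta2 and Trp63 were among those that did not. With all 6 arrays, where no member passed, 2 luminal markers and 1 myoepithelial marker did. Kit, a receptor gene of luminal progenitors, read 5.87, 6.01 and 6.36 in arrays labelled DOX against 9.39, 9.27 and 9.43 in control arrays (difference −3.28, SE 0.20, limma adjusted p = 0.00156). Elf5, a transcription factor gene of the same cells, fell by 2.19 (limma adjusted p = 0.0189), and Oxtr, the oxytocin receptor gene of myoepithelium, fell by 1.91 (limma adjusted p = 0.018). Without DOX replicate 2, 4 of 10 luminal markers (Krt8, Krt18, Elf5 and Kit) fell and 1 (Cldn4) rose, and 2 of 10 myoepithelial markers (Krt14 and Oxtr) fell. The mean luminal marker level was 9.28 to 9.34 on DOX replicates 1 and 3 and 8.58 on DOX replicate 2, against 9.80 to 9.83 in control arrays. That of the myoepithelial markers was 5.04 to 5.19 on DOX replicates 1 and 3 and 5.66 on DOX replicate 2, against 5.37 to 5.54 in control arrays. The part of these levels in the members' values was not tested. Endothelial markers, of vessels with a basement membrane of their own, lay below that median in 9 of 9 cases, and 3 of 10 fibroblast and pericyte markers lay above it.

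With all 6 arrays, 0 of the 35 members passed an adjusted p of 0.05 in limma, where 2.38% of all genes did (0.120% higher and 2.26% lower in arrays labelled DOX), and 7 members (20%) had an unadjusted p under 0.05, against 14.0% of all genes. The lowest adjusted p was 0.0678, for Itgb6. Without DOX replicate 2, 10 members rose, 5 fell and 20 did not pass, which is 42.9% called against 26.6% of all genes. By direction, 28.6% of members were higher against 12.3% of all genes, and 14.3% were lower against 14.3%. Of the 35 members, 26 had a mean above the median of all genes, where calls were more frequent. When the 50% of genes with the lowest mean were also left out, 2251 of 9968 genes were higher and 2769 lower. Of the 26 members then fitted, 9 were higher and 5 lower. The members' share called in either direction was then close to that of all genes fitted. By direction, a larger share of members was higher and a smaller share lower than among these genes. The part of level in the members' share was not tested. The members' median difference was 0.12 with either set of arrays, against 0.02 for all genes with all arrays and 0.01 without DOX replicate 2. Members were called in both directions within 4 roles, the laminin beta and gamma chains, collagen IV, the integrin alpha subunits and the integrin beta subunits. In bulk RNA fewer cells of a type and less RNA per cell cannot be told apart.

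**Figure D1:**
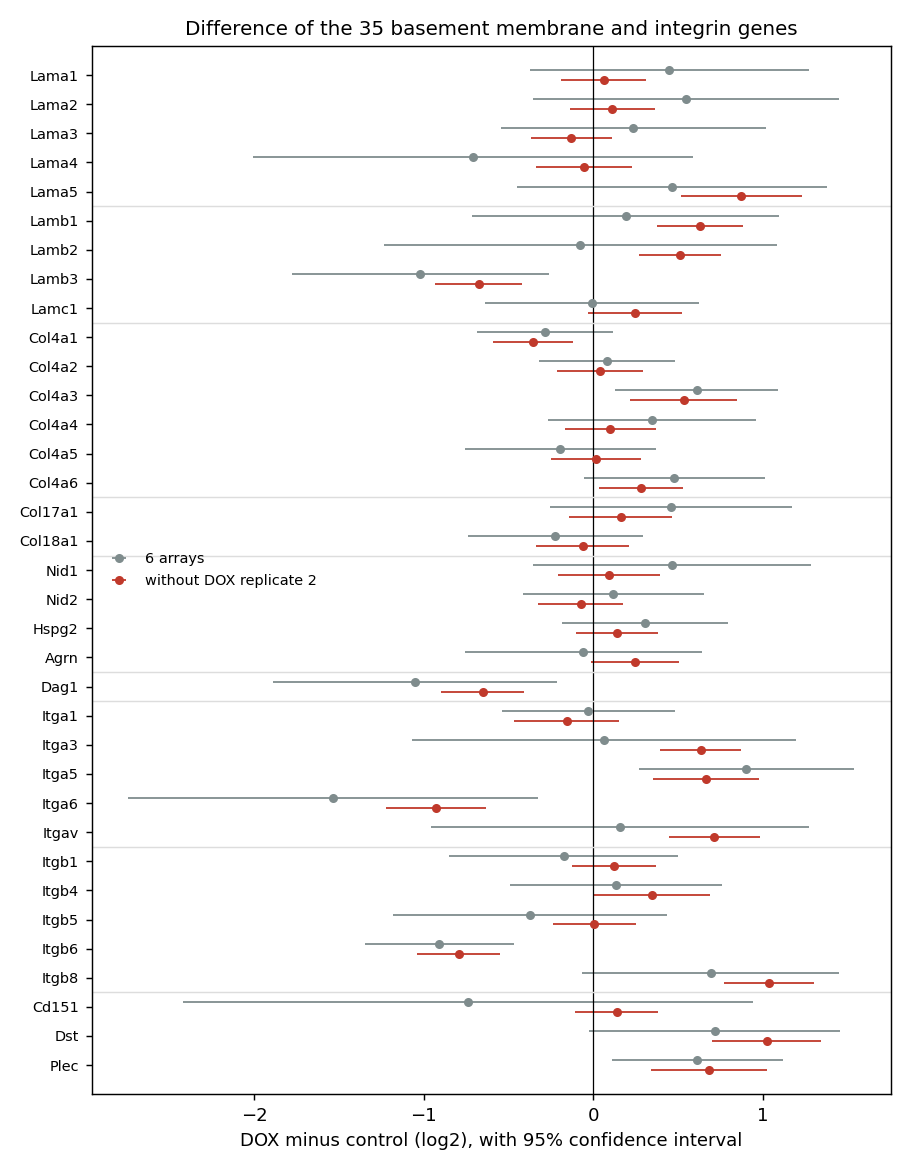
Difference in log2 expression, DOX minus control, of the 35 members in order of role (points, with 95% confidence intervals), with all 6 arrays in grey and without DOX replicate 2 in red. The grey intervals are wide and many reach across 0, and the red ones place 10 members above 0 and 5 below it at an adjusted p under 0.05.

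The laminin chains differed in direction. Lama5, the laminin alpha chain found under most mature epithelia, read 9.98, 8.49 and 9.44 in DOX replicates 1, 2 and 3 against 8.83, 8.71 and 8.98 in the control replicates. DOX replicates 1 and 3 lay above every control array and DOX replicate 2 below them. Lama5 rose by 0.87 (SE 0.16, limma adjusted p = 0.0022) without DOX replicate 2, and the difference with all arrays was 0.46 (limma adjusted p = 0.535). Lamb1, the most widely used laminin beta chain, read 9.37, 8.08 and 9.40 in arrays labelled DOX against 8.82, 8.64 and 8.82 in control arrays. Lamb2, the beta chain best known from the neuromuscular junction and the kidney, read 9.47, 7.71 and 9.47 in arrays labelled DOX against 8.98, 8.90 and 9.004 in control arrays. Both showed the pattern of Lama5, with DOX replicate 2 alone below the controls, and without that array both rose, Lamb1 by 0.63 (SE 0.11, limma adjusted p = 0.0021) and Lamb2 by 0.51 (SE 0.11, limma adjusted p = 0.00543). With all arrays the difference of Lamb1 was 0.19 and that of Lamb2 was −0.08, opposite in sign to its value without DOX replicate 2.

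Lamb3, the beta chain of the laminin that anchors hemidesmosomes, differed in the other direction. It read 7.76, 6.69 and 7.69 in arrays labelled DOX against 8.41, 8.29 and 8.50 in control arrays, so that no DOX array reached a control value. The difference was −1.02 with all arrays (limma adjusted p = 0.216) and −0.68 without DOX replicate 2 (SE 0.12, limma adjusted p = 0.00142). Lama3, the alpha chain of the same laminin, had a mean below the median of all genes (4.86, 5.99 and 4.93 in arrays labelled DOX against 5.00, 5.00 and 5.07 in control arrays), and did not pass in either fit. Lamc1, the gamma chain shared by most laminins, differed by 0.25 without DOX replicate 2 (95% confidence interval −0.03 to 0.52), and Lama4 by −0.05. Lama1 and Lama2 lay low, with means below the median of all genes, and did not pass.

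**Figure D2:**
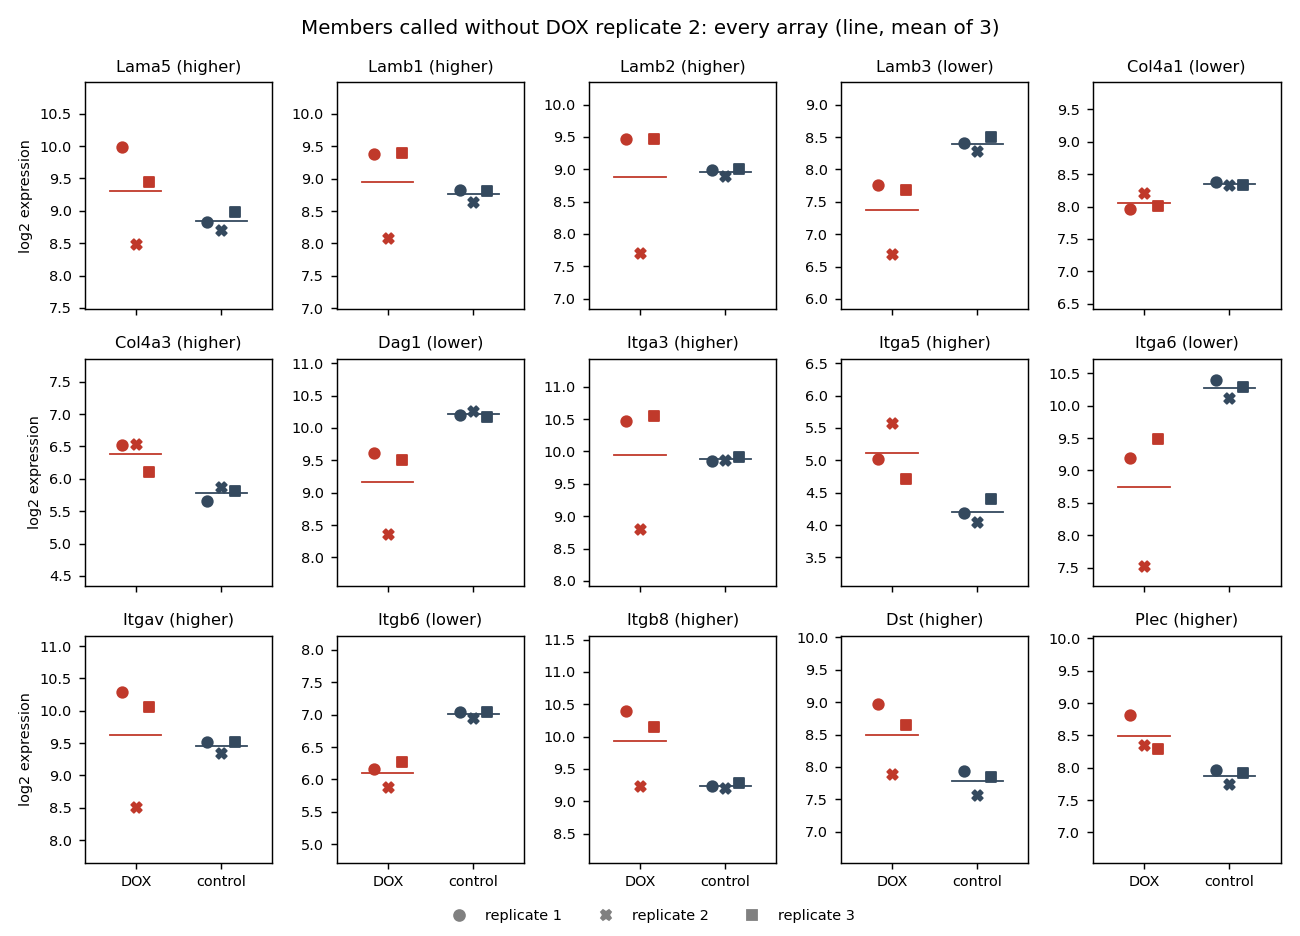
Log2 expression on each array of the 15 members called without DOX replicate 2, arrays labelled DOX on the left and control arrays on the right, with a line at the mean of 3. Every panel spans the same number of log2 units. DOX replicate 2 (crosses) lies below the other 2 DOX arrays in most panels, and below the controls for Lama5, Lamb1, Lamb2, Itga3 and Itgav, which were higher on the other DOX arrays.

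Among the 6 collagen IV genes, Col4a1 and Col4a2, which encode the chains of the common α1α1α2 network, differed in their values. Col4a1 read 7.97, 8.21 and 8.01 in arrays labelled DOX against 8.37, 8.33 and 8.34 in control arrays, all 3 DOX arrays below all 3 controls. It fell by 0.36 without DOX replicate 2 (SE 0.11, limma adjusted p = 0.0307), a call that was lost when any further array was left out (highest limma adjusted p 0.106), and differed by −0.28 with all arrays (limma adjusted p = 0.458). After a second quantile normalization and after cyclic loess of the 6 arrays its difference was above 0, at 0.01 and 0.10. Col4a2 read 8.64, 8.66 and 8.44 in arrays labelled DOX against 8.51, 8.45 and 8.54 in control arrays, with overlapping groups and a difference of 0.04 without DOX replicate 2 (95% confidence interval −0.22 to 0.29). Col4a3, a chain of the α3α4α5 network best known from kidney, read 6.52, 6.54 and 6.10 in arrays labelled DOX against 5.65, 5.88 and 5.81 in control arrays, with no overlap. It rose by 0.53 without DOX replicate 2 (SE 0.14, limma adjusted p = 0.0179), differed by 0.61 with all arrays (limma adjusted p = 0.244), and lost the call without DOX replicate 1 too (0.32, limma adjusted p = 0.113) or without control replicate 1 too (0.47, limma adjusted p = 0.0685). Col4a4, Col4a5 and Col4a6 did not pass in either fit.

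Col4a1 and Col4a2 lie head to head on mouse chromosome 8, and their start windows are shown because the starts lie close together while the genes' values differed. Whether the shared sequence controls both genes was not tested. The RefSeq windows of GRCm38.p6 hold 300 bases each, most of them before the start site, at chr8:11312777-11313076 on the minus strand for Col4a1 and chr8:11312555-11312854 on the plus strand for Col4a2. The annotated start sites are 21 bases apart and the windows share 78 bases. Each is printed 5′ to 3′ on its gene's strand, with GGGCGG and CCAAT on either strand in capitals.
Col4a1: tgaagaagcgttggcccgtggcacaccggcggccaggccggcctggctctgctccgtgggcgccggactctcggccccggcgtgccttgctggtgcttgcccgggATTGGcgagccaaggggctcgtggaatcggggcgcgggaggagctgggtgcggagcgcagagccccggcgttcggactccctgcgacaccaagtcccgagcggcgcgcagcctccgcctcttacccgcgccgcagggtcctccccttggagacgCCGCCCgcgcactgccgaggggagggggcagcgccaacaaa
Col4a2: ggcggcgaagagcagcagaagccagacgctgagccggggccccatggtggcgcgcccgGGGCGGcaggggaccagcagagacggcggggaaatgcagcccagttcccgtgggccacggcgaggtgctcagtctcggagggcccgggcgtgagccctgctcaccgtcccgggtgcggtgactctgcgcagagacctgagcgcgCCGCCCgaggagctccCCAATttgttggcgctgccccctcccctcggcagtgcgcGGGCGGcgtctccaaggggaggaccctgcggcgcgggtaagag
Of the 35 members 26 had such a window, 34 windows in all. GGGCGG was found in 64.7% of these and 35.7% of all 32851 mouse windows, CCAAT in 35.3% and 37.4%, and TGANTCA in 2.94% and 7.81%. CACGTG was in 0 of the 34, against 7.15% of all windows. All 4 were searched on both strands. No motif overlapped another in the windows printed, and a match is a description of the letters, not a binding site.

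Collagens XVII and XVIII, the nidogens and the heparan sulphate proteoglycans gave no call in either fit. Col18a1, whose fragment is endostatin, read 9.18, 8.54 and 8.86 in arrays labelled DOX against 9.11, 9.08 and 9.06 in control arrays, with a difference of −0.06 without DOX replicate 2 (95% confidence interval −0.34 to 0.21). Agrn, which encodes agrin, a proteoglycan that binds laminin and dystroglycan, read 8.66, 7.64 and 8.46 in arrays labelled DOX against 8.28, 8.26 and 8.40 in control arrays. It differed by 0.25 without DOX replicate 2 (95% confidence interval −0.01 to 0.51) and by −0.06 with all arrays. Hspg2, which encodes perlecan, had all 3 DOX arrays above the controls (5.95, 6.41 and 5.88 in arrays labelled DOX against 5.79, 5.82 and 5.72 in control arrays) but its difference of 0.14 did not pass (limma adjusted p = 0.398 without DOX replicate 2). Nid1, Nid2 and Col17a1, the transmembrane collagen of hemidesmosomes, had means below the median of all genes.

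Dag1, which encodes dystroglycan, a laminin receptor outside the integrin family, read 9.62, 8.36 and 9.50 in arrays labelled DOX against 10.20, 10.26 and 10.18 in control arrays. The groups did not overlap. The difference was −1.05 with all arrays (limma adjusted p = 0.25) and −0.65 without DOX replicate 2 (SE 0.11, limma adjusted p = 0.00134).

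The laminin-binding integrin subunits were called in opposite directions without DOX replicate 2. Itga6, which pairs with β1 or with the hemidesmosome subunit β4, read 9.19, 7.53 and 9.49 in arrays labelled DOX against 10.40, 10.13 and 10.28 in control arrays, without overlap. It fell by 0.93 without DOX replicate 2 (SE 0.13, limma adjusted p = 4.62e-04), and differed by −1.53 with all arrays (limma adjusted p = 0.245). Itga3, which pairs with β1 and binds laminins, read 10.47, 8.80 and 10.55 in arrays labelled DOX against 9.85, 9.87 and 9.91 in control arrays, with DOX replicate 2 below the controls and the other 2 above them. It rose by 0.63 without DOX replicate 2 (SE 0.11, limma adjusted p = 0.00144), while the difference with all arrays was 0.06.

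Subunits for RGD-containing ligands, those that carry an arginine-glycine-aspartate site such as fibronectin and latent TGF-β, also split. Itgav, the common alpha partner of β5, β6 and β8, read 10.29, 8.51 and 10.06 in arrays labelled DOX against 9.51, 9.35 and 9.52 in control arrays, and rose by 0.71 without DOX replicate 2 (SE 0.12, limma adjusted p = 0.00143). With all arrays its difference was 0.16 (limma adjusted p = 0.855). Itgb8, whose pair with αv activates latent TGF-β, read 10.40, 9.24 and 10.15 in arrays labelled DOX against 9.24, 9.20 and 9.28 in control arrays, where DOX replicate 2 lay among the controls. It rose by 1.03, or 2.05-fold, without DOX replicate 2 (SE 0.12, limma adjusted p = 9.48e-05), and differed by 0.69 with all arrays (limma adjusted p = 0.399). Itgb6, an epithelial subunit whose pair with αv has the same activity, read 6.16, 5.88 and 6.28 in arrays labelled DOX against 7.05, 6.95 and 7.04 in control arrays, and the groups did not overlap. It fell by 0.79 without DOX replicate 2 (SE 0.11, limma adjusted p = 3.79e-04) and differed by −0.91 with all arrays.

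Itga5, the alpha subunit of the fibronectin receptor α5β1, read 5.03, 5.58 and 4.71 in arrays labelled DOX against 4.18, 4.04 and 4.40 in control arrays. All of these values lay below the median of all genes, and DOX replicate 2, on which low values read high, was the highest of them. The groups did not overlap. Without that array Itga5 rose by 0.66 (SE 0.14, limma adjusted p = 0.00537), and the difference with all arrays was 0.90 (limma adjusted p = 0.194). Itgb1, the common beta partner, read 11.51, 10.68 and 11.62 in arrays labelled DOX against 11.45, 11.37 and 11.51 in control arrays, and differed by 0.12 without DOX replicate 2 (95% confidence interval −0.13 to 0.37). Without DOX replicate 2, Itgb4, the hemidesmosome subunit, differed by 0.34 (95% confidence interval −0.002 to 0.69), Itgb5 by 0.01 and Itga1 by −0.16. With all arrays these differences were 0.13, −0.37 and −0.03. None of them passed in either fit, and Itga1 lay below the median of all genes.

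The start windows of Itgb8 and Itgb6 are shown as those of the beta subunits called in opposite directions. Itgb8 lies on chromosome 12, with its RefSeq window at chr12:119238227-119238526 on the minus strand, and Itgb6 on chromosome 2, with its most upstream window at chr2:60722554-60722853 on the minus strand, both in GRCm38.p6 and printed as above.
Itgb8: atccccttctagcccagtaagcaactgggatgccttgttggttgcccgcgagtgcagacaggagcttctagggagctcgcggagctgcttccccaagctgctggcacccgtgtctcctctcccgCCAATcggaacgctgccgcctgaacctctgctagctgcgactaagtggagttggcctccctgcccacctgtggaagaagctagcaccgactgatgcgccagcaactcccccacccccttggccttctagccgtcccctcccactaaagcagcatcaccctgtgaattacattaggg
Itgb6: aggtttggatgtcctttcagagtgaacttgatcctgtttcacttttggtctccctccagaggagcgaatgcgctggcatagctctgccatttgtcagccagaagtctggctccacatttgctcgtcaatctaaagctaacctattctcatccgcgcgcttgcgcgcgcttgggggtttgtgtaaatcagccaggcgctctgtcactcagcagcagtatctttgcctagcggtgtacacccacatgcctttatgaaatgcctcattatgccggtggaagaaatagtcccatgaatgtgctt
The Itgb8 window holds 1 CCAAT and the Itgb6 window none of the 4 motifs.

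Of the 3 hemidesmosome partners, both cytoskeletal linkers rose without DOX replicate 2. Dst, which encodes dystonin, whose epithelial form BPAG1e ties hemidesmosomes to keratin, read 8.97, 7.88 and 8.65 in arrays labelled DOX against 7.93, 7.57 and 7.85 in control arrays, with only DOX replicate 2 inside the control range. It rose by 1.02, or 2.03-fold (SE 0.14, limma adjusted p = 4.22e-04), and differed by 0.71 with all arrays (limma adjusted p = 0.37). Which of the epithelial, neuronal and muscle forms of the gene the probe set reads was not tested. Plec, which encodes plectin, read 8.82, 8.35 and 8.30 in arrays labelled DOX against 7.96, 7.74 and 7.92 in control arrays, and all 3 DOX arrays lay above the controls. It rose by 0.68 (SE 0.15, limma adjusted p = 0.00765) without DOX replicate 2 and differed by 0.61 with all arrays (limma adjusted p = 0.268). Cd151, a tetraspanin that binds the laminin-binding integrins, read 10.68, 8.01 and 10.59 in arrays labelled DOX against 10.48, 10.56 and 10.45 in control arrays, and its difference of 0.14 without DOX replicate 2 did not pass (95% confidence interval −0.11 to 0.38).

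The arrays of the groups did not overlap for 10 members, 28.6% against 32.0% of all genes. All 3 arrays labelled DOX lay above all 3 controls for 5 members (Col4a3, Col4a6, Hspg2, Itga5 and Plec), 14.3% against 11.7% of all genes, and below them for 5 others (Lamb3, Col4a1, Dag1, Itga6 and Itgb6), 14.3% against 20.3% of all genes.

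The compression of DOX replicate 2 can be set beside each member. Genes of the same control level step as Itgb8 had a median of −1.59 on that array, as array minus control mean, and Itgb8 itself had 0.00. Dst had 0.10 and Plec 0.47, where genes of their step had −1.06. Lama5 had −0.35 and Lamb1 −0.68, where genes of their step had −1.36. These 5 members, higher on the other DOX arrays, thus lay above the median of genes of their level on DOX replicate 2 too. So did members that were not called. Col4a2 had 0.16 and Itgb4 −0.29, where genes of their step had −1.36, and Col18a1 had −0.55, where its step had −1.59. A place above the step was thus not particular to members called higher. Itga6 had −2.74 and Dag1 −1.85, below the −1.59 of their step, and Itgb6 had −1.13 where its step had −0.75. Cd151, not called, had −2.49 where its step had −1.59. Col4a1 had −0.14 where its step had −1.36, so that relative to such genes it read high on DOX replicate 2, while DOX replicates 1 and 3 had −0.38 and −0.34. These are descriptions of 1 array, with no test.

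**Figure D3:**
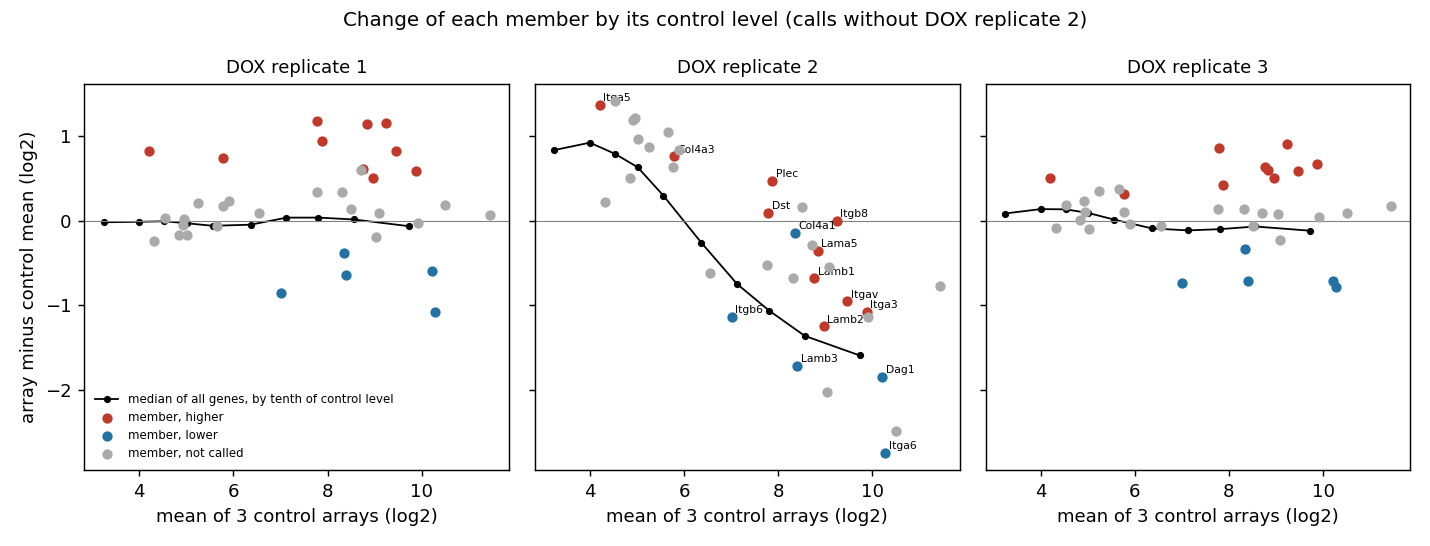
Change of each member on each DOX array, as the array's log2 value minus the mean of the 3 control arrays, against that control mean (points, coloured by the call without DOX replicate 2), with the median change of all genes in each of 10 steps of control level (black line). The line stays near 0 for DOX replicates 1 and 3, with a slight fall on DOX replicate 3, from 0.14 at step 2 to −0.12 at step 10. It lies between 0.93 and −1.59 for DOX replicate 2, where Itgb8, Dst and Plec lie above it and Itga6, Lamb3 and Itgb6 below it. Members not called lie on both sides of it there too.

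Ratios of 2 members within an array cancel only what both genes share on that array. They were taken for the 7 pairs of members of 1 role called in opposite directions without DOX replicate 2, and for Col4a2 over Col4a1, all chosen after their values were seen and so given without a test. Only the change of a ratio between arrays is read, not its level. The ratio of Itga3 to Itga6 was 1.28, 1.27 and 1.06 in arrays labelled DOX against −0.55, −0.26 and −0.38 in control arrays on the log2 scale, and DOX replicate 2 lay with the other 2 DOX arrays. That of Itgav to Itga6 was 1.10, 0.98 and 0.56 in arrays labelled DOX against −0.89, −0.78 and −0.77 in control arrays. That of Lamb1 to Lamb3 was 1.61, 1.39 and 1.71 in arrays labelled DOX against 0.42, 0.35 and 0.31 in control arrays. For these 3 pairs both genes lie in the same step of control levels, so the median change of genes of their level does not move the ratio. Single genes of 1 step still differed on DOX replicate 2. Cd151 and Itgb1, of the highest step and not called, read −2.49 and −0.77 from their control means there. The ratios on that array are thus not free of its distortion.

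The ratio of Itgb8 to Itgb6 was 4.24, 3.36 and 3.87 in arrays labelled DOX against 2.19, 2.25 and 2.24 in control arrays, 1.14 higher than the control mean on DOX replicate 2, where the medians of genes of their levels differed by −0.84. That of Col4a2 to Col4a1 was 0.67, 0.46 and 0.43 in arrays labelled DOX against 0.14, 0.13 and 0.20 in control arrays, a smaller shift of 0.36 between the group means, and that of Lamb2 to Lamb3 was 1.71, 1.03 and 1.78 in arrays labelled DOX against 0.58, 0.61 and 0.50 in control arrays. The ratios of Col4a3 to Col4a1 and of Itga5 to Itga6 set a low against a high gene, and on DOX replicate 2 the medians of genes of their levels alone differ by 1.66 and 2.52, against 0.90 and 4.12 for the pairs. The groups overlapped for none of the 8 ratios. Itga6, Lamb3 and Col4a1 each recur as the second gene, so the ratios are not separate observations. On DOX replicate 2 Itga6 and Lamb3 had −2.74 and −1.71 from their control means, below the −1.59 and −1.36 of their steps. Col4a1 had −0.14, above the −1.36 of its step. For the pairs called in opposite directions, the separation of DOX replicates 1 and 3 from the controls follows from the choice of pairs. Only DOX replicate 2 had no part in those calls. The share of other gene pairs without overlap was not computed.

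**Figure D4:**
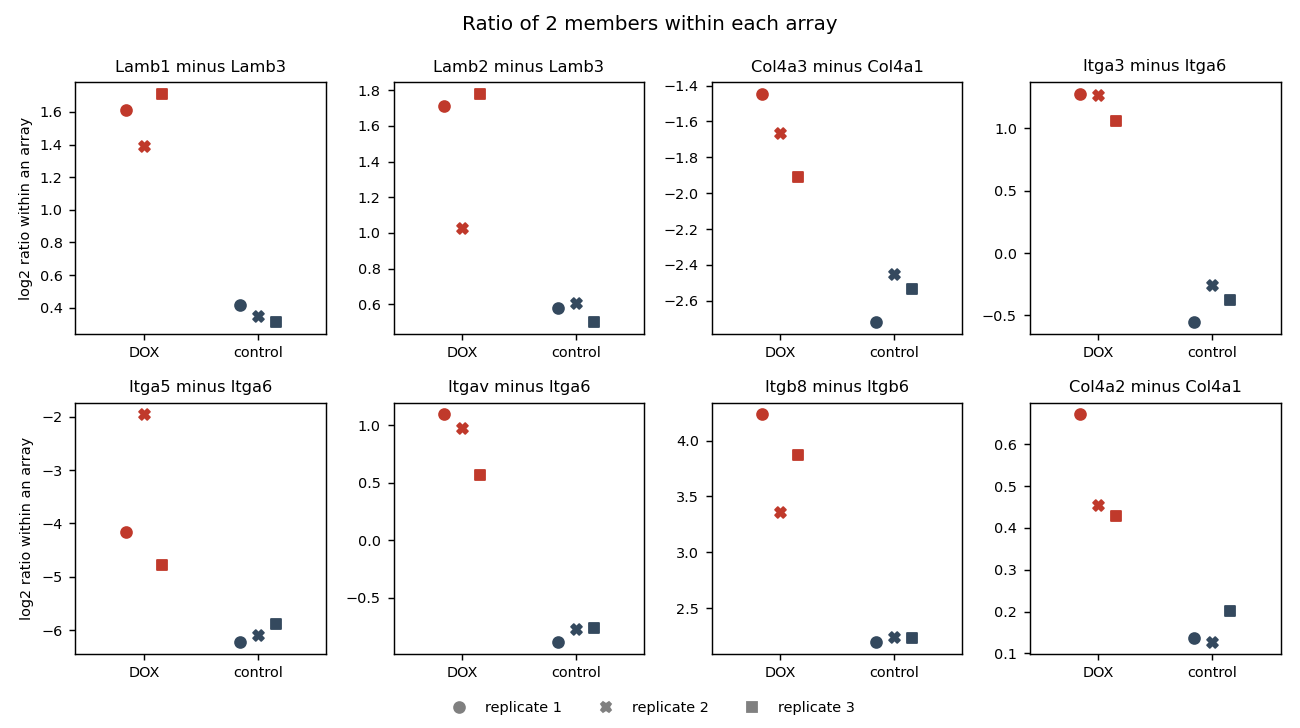
Log2 ratio of 2 members within each array, arrays labelled DOX on the left and control arrays on the right, 1 panel for each of 8 pairs, with a scale of its own. All 3 DOX arrays lie above all 3 controls in every panel, DOX replicate 2 (crosses) included. Except for Col4a2 and Col4a1, the pairs were chosen by their opposite calls on the other arrays, which sets the place of DOX replicates 1 and 3. Itga6, Lamb3 and Col4a1 each recur, so the panels are not independent.

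Genes around the members gave the following counts. Over all genes 0.120% rose and 2.26% fell with all arrays, and 12.3% rose and 14.3% fell without DOX replicate 2. Of 17 other laminin and integrin chains measured, 1 rose and 1 fell with all arrays, and 2 rose and 1 fell without DOX replicate 2 (medians 0.31 and 0.17). Itgb3, the beta subunit known as a luminal progenitor marker, fell, reading 5.80, 6.27 and 5.90 in arrays labelled DOX against 8.37, 8.34 and 8.44 in control arrays (difference −2.39, SE 0.19, limma adjusted p = 0.003, and −2.53 without DOX replicate 2). Itgb2, the leukocyte beta subunit, rose by 1.06 (SE 0.19, limma adjusted p = 0.042; 1.00 when DOX replicate 2 was left out), with 6.03, 6.28 and 6.19 in arrays labelled DOX against 5.10, 5.29 and 4.94 in control arrays. Of 6 leukocyte markers measured none passed with all arrays and 2 rose without DOX replicate 2, the lysosomal protein gene Cd68 by 1.01 and the pan-leukocyte gene Ptprc by 0.38, and 1 of the 6 had a mean above the median of all genes. The mean level of the 6 was 5.14 to 5.35 on DOX replicates 1 and 3 and 5.59 on DOX replicate 2, against 5.02 to 5.09 in control arrays. The part of this level in the value of Itgb2 was not tested. Itga2, the alpha subunit of the collagen receptor α2β1, chosen after its values were seen, read 8.53, 6.69 and 8.23 in arrays labelled DOX against 6.71, 6.77 and 7.06 in control arrays and rose by 1.53 without DOX replicate 2 (SE 0.14, limma adjusted p = 2.03e-05), with a difference of 0.97 with all arrays (limma adjusted p = 0.418).

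Of 17 enzymes and chaperones that mature collagen, 2 fell and 0 rose with all arrays, and 9 fell and 3 rose without DOX replicate 2, with median differences of −0.60 and −0.35. Of the 17, 12 had a mean above the median of all genes, a level at which genes read low on DOX replicate 2. The 3 that rose without that array were P4ha2 by 1.24 (limma adjusted p = 4.40e-05), P4ha1 by 0.48 and Lox by 0.46. P3h2, a prolyl 3-hydroxylase that acts on collagen IV, read 5.09, 6.22 and 5.45 in arrays labelled DOX against 8.78, 8.78 and 8.84 in control arrays, and fell by 3.21 (SE 0.30, limma adjusted p = 0.00526, and −3.53 without DOX replicate 2). Loxl3, a lysyl oxidase that cross-links matrix, read 7.04, 6.55 and 7.75 in arrays labelled DOX against 9.97, 9.94 and 10.02 in control arrays, and fell by 2.86 (SE 0.32, limma adjusted p = 0.00867, and −2.58 without DOX replicate 2). Neither gene's arrays overlapped.

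Of 23 other basement membrane and linker proteins, Sdc1, which encodes the cell surface proteoglycan syndecan 1, fell by 1.36 (SE 0.23, limma adjusted p = 0.0382, and −1.16 without DOX replicate 2), and no other passed with all arrays. Without DOX replicate 2, 6 of the 23 fell and 2 rose. Of 24 focal adhesion and integrin adaptor genes none passed with all arrays, and 3 rose and 3 fell without DOX replicate 2 (median −0.04). Among them Actn4 and Actn1, which encode the actin cross-linkers α-actinin 4 and 1, differed in direction, at −0.71 and 0.67, with limma adjusted p of 8.60e-04 and 0.00143, and at −1.13 and 0.58 with all arrays. Fermt2, which encodes the integrin activator kindlin 2, fell by 0.80 (limma adjusted p = 8.98e-04, and −1.61 with all arrays). Parva, which encodes α-parvin, a partner of integrin-linked kinase, fell by 0.59, with a difference of −0.89 with all arrays.

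Of 14 genes of the dystrophin complex and of dystroglycan glycosylation, none passed with all arrays, and 5 fell and 3 rose without DOX replicate 2. Sntb1, a syntrophin gene of that complex, fell by 1.15 (SE 0.12, limma adjusted p = 3.43e-05), with a difference of −1.45 with all arrays (limma adjusted p = 0.0595). Sspn, which encodes sarcospan, fell by 0.69, with a difference of −0.92 with all arrays. Pomk and Pomgnt1, whose enzymes help build the sugar chains by which dystroglycan binds laminin, fell too, with differences of −0.73 and −0.60, and of −0.93 and −0.89 with all arrays. Pomt2, also of dystroglycan glycosylation, rose by 0.45 (limma adjusted p = 0.0354) without DOX replicate 2. Utrn and Sntb2, of the complex, rose by 0.56 and 0.42. With all arrays the differences of Pomt2, Utrn and Sntb2 were 0.01, 0.23 and −0.09. Of 12 tetraspanin genes 3 fell with all arrays, Tspan15 by 3.24 (SE 0.23, limma adjusted p = 0.00223), and Tspan13 and Tspan1 with differences of −2.45 and −2.07. Without DOX replicate 2 these 3 had differences of −3.41, −2.68 and −2.34. Without DOX replicate 2, 5 of the 12 fell and 2 rose, Cd63 by 1.72 (limma adjusted p = 5.00e-06) and Cd53, below the median of all genes, by 0.64 (limma adjusted p = 0.00487). With all arrays their differences were 1.38 and 0.74 and did not pass.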

How the data were processed

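Each of 6 organoid cultures gave RNA for 1 array. What the authors deposited is a table of log2 values, 1 per probe set and array, and the authors' tools, per the submitters' processing notes, were RMA and affy, without versions. RMA gives no detection calls, so which low genes were detected is not known. Changes of low genes can be understated, and on DOX replicate 2 low genes read high. Of 34760 probe sets, 21640 carried 1 symbol in the platform annotation, and a gene was its probe set with the highest mean, giving 19937 genes.

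The fit was made by limma 3.58.1 under R 4.3.3 (lmFit, eBayes, two-sided, Benjamini-Hochberg over all genes, threshold 0.05), with all 6 arrays and without DOX replicate 2. The fits were tried on simulated data with independent noise of equal spread in both groups. No array was compressed in those data, so they cannot show how the fit handles DOX replicate 2. Level steps are 10 equal groups of genes by control mean. Alternatives were the replicate number as a block, each array left out, filters on low means, 3 normalizations, means over probe sets, a variance trend and array weights. Those within the fit without DOX replicate 2 were chosen after seeing the data. The members and lists were chosen with earlier results of these data known. Members past the threshold in either fit, and the member of each role with the highest mean, are given by array, and of each other list up to 4 genes past the threshold with the smallest p. Itga2, and the genes that rose among the collagen enzymes, in the dystroglycan list and among the tetraspanins, are named besides. The array annotation's genome build was not stated in what was used here, and start windows are RefSeq's in GRCm38.p6.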

Additional observations from a re-analysis of the deposited data

How the results depend on the processing

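Counts over all genes, 24 higher and 450 lower with all arrays, depended on DOX replicate 2, on the scaling and on the number of arrays. With each array left out in turn, 2 to 2454 genes were higher and 61 to 2855 lower, with 0 to 10 members higher and 0 to 5 lower, the highest value each time without DOX replicate 2. Without any other single array limma called 0 members. Counts of genes higher and lower were 185 and 626 after a second quantile normalization (22.8% of calls higher, against 5.06%), 557 and 1197 after cyclic loess (31.8%), 7 and 487 with arrays centred on their medians, and 3643 and 3752 with array weights (49.3%), where DOX replicate 2 had a weight of 0.0333. Centring moved the median difference of all genes to −0.18. Members higher and lower were 2 and 1 after quantile normalization (Itgb8, Dst, Dag1), 4 and 4 after cyclic loess (Lama5, Lamb1, Itgb8 and Dst, and Lamb3, Dag1, Itga6 and Itgb6), 12 and 5 with array weights, and 0 and 1 (Itgb6) with a variance trend. The replicate block gave 3 higher and 159 lower genes and 0 members. Deviations of same-numbered samples correlated at 0.117, 0.194 and 0.0852, not every sample most with its own number, so the numbers are not taken as pairs.

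Without DOX replicate 2, the 10 higher and 5 lower members were again 10 and 5 after quantile normalization, cyclic loess or a variance trend, with the same 15 genes called. Leaving out a further array gave 9 to 11 members higher and 4 lower each time, since the call of Col4a1 was lost, and 1550 to 2515 genes higher and 2168 to 2914 lower. A lone DOX array was there assumed to vary like the others. Apart from Col4a1 and Col4a3, all of the 15 kept their call in every alternative in which they were fitted (highest limma adjusted p 0.047, Plec).

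Differences opposite in sign to those with all arrays were as follows. After quantile normalization they were 0.17 for Lamb2, 0.012 for Col4a1, 0.031 for Col18a1 and 0.19 for Agrn, and after cyclic loess 0.34 for Lamb2, 0.10 for Col4a1, 0.19 for Col18a1, 0.33 for Agrn and 0.18 for Itgb1. With array weights they were 0.485 for Lamb2, −0.031 for Col4a2, 0.17 for Agrn, 0.14 for Itgb1 and 0.092 for Cd151, and with arrays centred on their medians −0.014 for Lamb1, −0.13 for Col4a2, −0.14 for Itga3 and −0.046 for Itgav. With 1 array left out, the range was −0.033 to 0.63 for Lamb1, −0.24 to 0.63 for Itga3 and −0.18 to 0.71 for Itgav, below 0 without DOX replicate 1 or 3. It was −0.37 to 0.51 for Lamb2, −0.26 to 0.25 for Agrn, −0.35 to 0.12 for Itgb1 and −1.20 to 0.14 for Cd151, above 0 without DOX replicate 2. Within the fit without DOX replicate 2, leaving out a further array gave −0.063 to 0.14 for Col4a2 and −0.22 to 0.099 for Col18a1. The cause of these changes was not tested. The number of arrays, 3 a group with 1 of them strongly compressed, limits the precision, and no detection calls come with these values.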
